A study of Homo sapiens with 2 samples.

Results

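The mRNAs of 43 translation factors were followed in RNA that co-precipitated with LRPPRC, an RNA-binding protein of mitochondria and cytoplasm. They were chosen by gene name from a list of initiation, elongation and release factors and cytoplasmic poly(A)-binding proteins. The choice did not use their measured values, but it was made with earlier results of these data known. All 43 had exactly 1 row among the 21262 rows of the expression table. The samples were 2 RNA immunoprecipitation (RIP) libraries of 1 condition, from lysates of wild-type A549 cells, a lung adenocarcinoma epithelial cell line, made with 2 μg of an anti-LRPPRC antibody and with no other treatment. The study's text calls the libraries biological replicates and the series description calls them technical, so the spread between them may be technical only. Values were FPKM, the fragments assigned to a gene divided by the length of its transcript and by the mapped fragments of the library. They summed to 196627 in replicate 1 and 194839 in replicate 2. FPKM gives the level of an mRNA in the precipitate. No input or IgG library was used here, so a high level in the cell and a high recovery by LRPPRC cannot be told apart. With 1 condition there was no test between conditions, and genes are described by their levels in both libraries. Among genes used to check the cell line, the keratin KRT8 had a mean of 337 FPKM and KRT18 had 51.1 FPKM, whereas the epithelial adhesion genes EPCAM and CDH1 were at 0.430 and 1.33 FPKM. The leukocyte gene PTPRC had no row, and PECAM1 and COL1A1 were at 0.192 and 0.696 FPKM. The LRPPRC mRNA itself was at 184 FPKM in replicate 1 and 176 in replicate 2.

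Protein synthesis begins when the GTP-binding factor eIF2 brings the initiator tRNA to the small ribosomal subunit, to which the large complex eIF3 is bound. The eIF4 factors recognize and unwind the 5′ end of the mRNA and join it, through eIF4G, to poly(A)-binding protein on the tail. Elongation factors then deliver aminoacyl-tRNAs and move the ribosome along, and release factors free the finished chain at the stop codon. Many mRNAs of this machinery belong to a class that starts with a C followed by an unbroken stretch of pyrimidines, the terminal oligopyrimidine (TOP) motif, through which their translation follows mTOR activity.

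The annotated starts of these genes are shown first because the TOP class is the best-known sequence feature that members of this machinery share. The members were chosen by name and not by their starts. Many mRNAs of this machinery are known TOP mRNAs, so a share above that of other genes was likely in advance. In the RefSeq promoter table of GRCh38.p14, 34 of the 43 genes had an entry. EIF2S2, EIF3A, EIF3E, EIF3G, EIF3H, EIF3L, EEF1D, PABPC1 and PABPC4 had none. The sense strand was searched for a C at the first transcribed base followed by at least 4 bases that are each C or T, and a gene counted if any of its starts had this run. The run was found for 10 of the 34 genes (29.4%). Counted in the same way per gene, it was found for 7.70% of the 8609 named genes that had an entry and reached FPKM 1 in each library, and counted per start, in 4.07% of the 35116 promoter entries of the table. The windows below hold 10 bases before the start and the first 20 transcribed bases, 5′ to 3′, with the pyrimidine run in capitals. EEF1B2 has a pair of annotated starts, of which the one shown has the run.
EEF1A1, chr6:73521013-73521042, minus strand: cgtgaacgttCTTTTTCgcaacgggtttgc
EEF2, chr19:3985444-3985473, minus strand: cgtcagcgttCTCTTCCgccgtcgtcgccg
EIF4B, chr12:53006446-53006475, plus strand: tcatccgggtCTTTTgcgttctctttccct
EIF3F, chr11:7987327-7987356, plus strand: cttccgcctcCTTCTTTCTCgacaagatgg
EIF2S3, chrX:24054946-24054975, plus strand: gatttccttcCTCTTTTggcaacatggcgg
EIF3K, chr19:38619178-38619207, plus strand: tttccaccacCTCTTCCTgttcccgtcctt
EIF3D, chr22:36529147-36529176, minus strand: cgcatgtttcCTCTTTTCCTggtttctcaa
EIF4A2, chr3:186783567-186783596, plus strand: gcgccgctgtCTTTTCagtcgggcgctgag
EEF1B2, chr2:206159885-206159914, plus strand: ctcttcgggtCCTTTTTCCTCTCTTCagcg
EIF3M, chr11:32583821-32583850, plus strand: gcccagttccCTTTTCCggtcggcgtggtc

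For contrast, 3 genes with 1 annotated start and a mean above 100 FPKM had no such run at that start, and their windows hold no capitals.
EIF4A1, chr17:7572815-7572844, plus strand: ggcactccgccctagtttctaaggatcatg
EIF4H, chr7:74174346-74174375, plus strand: ctcgctcaccctggttcctctcggagcgga
EEF1G, chr11:62573872-62573901, minus strand: cgggcggcttactttgcggcagcgccgaga

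Most translation factor mRNAs lay above FPKM 30, the level above which the study listed an RNA as a potential binding partner of LRPPRC. The study also gave RIP signals relative to input, which were not used here, so the counts below describe levels and not binding. The mean of both libraries was above 30 for 24 of 43 genes (55.8%), against 13.6% of the 10441 named genes that reached FPKM 1 in each library, called expressed genes below. This name refers to their level in the precipitate and not in the cell. The same count, 24, was obtained in each library alone. Above 100 FPKM were 11 of the 43, against 2.48% of the expressed genes, and below 10 FPKM were 6 of the 43, against 61.5%. The median was 46.2 ± 1.17 FPKM (SD of the library medians, n = 2), and the median of the expressed genes was 6.81. At FPKM 20 the count was 28 of 43, against 21.1% of the expressed genes, and at FPKM 50 it was 21, against 6.89%. All 43 mRNAs together held 2.55% of the FPKM sum of replicate 1 and 2.48% of that of replicate 2. The levels ranged from EIF2B2, at 1.39 FPKM, to PABPC1, at 1066 FPKM, a ratio of 769. The genes closest to the threshold were ETF1, just above it at 31.1 FPKM, and EIF4G3, just below it at 27.1 FPKM.

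The functional groups differed in median level. By median FPKM the poly(A)-binding proteins stood highest, at 566 FPKM for 2 genes, followed by the eIF4 factors at 193 for 7 genes, the elongation factors at 118 for 5, the eIF3 subunits at 74.0 for 13, the release factors at 55.3 for 2, eIF2 at 46.2 for 3, the remaining initiation factors at 32.6 for 6, and eIF2B at 4.77 for 5. The medians of the libraries did not overlap between any neighbours in this order. This describes how closely the libraries repeat each other and not the spread among the genes of a group. Single genes of different groups overlapped, and PABPC4, at 66.2 FPKM, was below the median of the eIF3 subunits. The widest spread within a group was that of the elongation factors, with a ratio of 69.3 between its highest and lowest gene, followed by eIF3 with 46.4 and eIF4 with 33.8. Of the 42 neighbouring pairs in the order of single genes, 32 were apart in both libraries and 10 overlapped, among them EIF5A and EIF2S3, EIF2S3 and EIF3B, and GSPT1 and EIF3C.

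PABPC1, the main cytoplasmic poly(A)-binding protein, which coats the mRNA tail and contacts eIF4G, had 1077 FPKM in replicate 1 and 1055 in replicate 2. It ranked 3 of 16770 named genes by mean. PABPC4, a related protein, had 66.3 and 66.0 FPKM. Both libraries thus placed PABPC1 far above its paralog, by 16.2 times in replicate 1 and 16.0 times in replicate 2. PABPC1 has 13 annotated pseudogenes of its own name in GENCODE 44 and PABPC4 has none, and the sources used here do not give how reads shared with such copies were assigned.

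Among the elongation factors, 2 GTPases led and the subunits of the exchange factor were uneven. EEF1A1, which carries aminoacyl-tRNA to the ribosome, had 677 FPKM in replicate 1 and 569.8 in replicate 2. EEF2, which drives translocation, had 479 and 465 FPKM. Their values did not overlap, and they ranked 13 and 23 of the named genes. Both have a pyrimidine run at the annotated start in the windows above. Nucleotide exchange on eEF1A is carried out by a complex that contains the products of EEF1B2, EEF1D and EEF1G. EEF1G, its scaffold-like subunit, had 124 FPKM in replicate 1 and 112 in replicate 2. EEF1D stood at 10.5 and 13.4 FPKM, and EEF1B2 at 9.14 and 8.86. EEF1G was thus 13.1 times above EEF1B2 by mean, with no overlap. EEF1B2 has the longest run of the 10, at 16 pyrimidines, at the annotated start shown above. The A2 form of the carrier, EEF1A2, had 22.9 ± 0.202 FPKM (SD, n = 2), and EEF1A1 was 29.8 times above it in replicate 1 and 24.7 times in replicate 2. EEF1A1 has 49 annotated pseudogenes of its own name, the most of any member.

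The eIF4 group held 5 of the 11 genes above 100 FPKM. EIF4G2, an eIF4G relative that lacks the binding site for eIF4E and serves alternative modes of initiation, had 393 FPKM in replicate 1 and 387 in replicate 2. EIF4G1, the main scaffold of the cap-binding complex, had 251 and 238 FPKM. The second scaffold gene, EIF4G3, had 27.1 FPKM in both libraries. EIF4G1 was thus 9.28 times above EIF4G3 in replicate 1 and 8.81 times in replicate 2. EIF4B, a cofactor of the helicase eIF4A, had 212 and 210.2 FPKM, and EIF4H, a second cofactor, had 168 and 161. For the helicase itself the paralogs stood far apart. EIF4A1, at chr17:7572824-7579006 on the plus strand, had 184 FPKM in replicate 1 and 202 in replicate 2. EIF4A2, at chr3:186783205-186789897 on the plus strand, had 11.0 and 12.1 FPKM. The ratio was 16.7 in each library, and both mRNAs were the higher in replicate 2. Both genes hold snoRNA genes within their bounds on the same strand, 3 in EIF4A1 and 5 in EIF4A2. Pseudogenes of the same name are also annotated, 13 for EIF4A1, 5 for EIF4A2 and 9 for EIF4B. How reads shared with these copies were assigned is not known here either.

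The 13 subunits of eIF3, the largest initiation factor, fell into an upper and a lower set with nothing between 24.5 and 74.0 FPKM. The upper set had 7 subunits. EIF3F had 148 FPKM in replicate 1 and 144 in replicate 2. EIF3E had 114 FPKM in both libraries. EIF3G had 101 and 94.6 FPKM, and EIF3B, with an RNA-recognition domain, had 85.8 and 87.0. EIF3C had 79.4 and 78.8 FPKM, EIF3A, the largest scaffold subunit, had 77.4 and 79.1, and EIF3L had 75.1 and 72.9. The lower set had 6 subunits, of which EIF3K had 24.4 and 24.6 FPKM, EIF3D, a subunit that can bind the cap of some mRNAs, had 19.1 and 20.7, and EIF3H had 14.5 and 14.7. EIF3J, a loosely bound subunit, had 11.4 and 12.6 FPKM and EIF3I had 10.3 and 10.9. EIF3M was the lowest, with 3.17 FPKM in replicate 1 and 3.12 in replicate 2. The ratio of EIF3F to EIF3M was 46.8 in replicate 1 and 45.9 in replicate 2. Both proteins belong to the same core of 8 subunits with PCI or MPN domains. Both genes have a pyrimidine run at an annotated start, and the part of the run in the levels was not tested. The core had a median of 76.1 FPKM and 5 of 8 mRNAs above 30, and the other 5 subunits had a median of 19.9 and 2 above 30. EIF3CL, a near-identical copy of EIF3C on chromosome 16, had 72.6 FPKM in replicate 1 and 74.5 in replicate 2, close to EIF3C. Reads of such copies cannot be assigned by sequence alone, so the split between EIF3C and EIF3CL is uncertain. The place of EIF3C among the subunits, and that of EIF3F as the highest, may depend on this split.

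The initiator tRNA carrier eIF2 and its exchange factor eIF2B stood at different levels. EIF2S3, the GTP-binding γ subunit of eIF2, had 88.3 FPKM in replicate 1 and 85.9 in replicate 2. EIF2S1, the α subunit whose phosphorylation slows initiation, had 47.0 and 45.4 FPKM, and EIF2S2, the β subunit, had 24.1 and 25.9. The order γ, α, β was the same in both libraries, with no overlap. Of the 5 subunits of eIF2B, which recharges eIF2 with GTP, none reached 30. EIF2B1 had 15.8 and 16.9 FPKM and EIF2B5, the catalytic subunit, had 15.1 and 14.8. EIF2B3 had 4.84 and 4.69 FPKM, EIF2B4 had 3.32 and 3.57, and EIF2B2 had 1.42 and 1.35. The highest eIF2B mRNA, EIF2B1, was below the lowest eIF2 mRNA, EIF2S2, in both libraries. None of the 5 eIF2B genes had a pyrimidine run at an annotated start. EIF2B2, at chr14:75002921-75012366 on the plus strand, was the lowest of all 43 genes, although its level was still at least 1 FPKM in each library.

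Of the other initiation factors, 3 of 6 were above 30. EIF5A, the hypusine-containing factor that helps the ribosome form difficult peptide bonds, had 91.4 FPKM in replicate 1 and 87.5 in replicate 2. EIF5, the GTPase-activating protein of eIF2, had 71.2 and 72.7 FPKM, and EIF1, which guards the choice of the start codon, had 42.7 and 43.01. Below the threshold, EIF6, which keeps the large ribosomal subunit apart, had 24.6 and 20.3 FPKM. EIF1AX, the partner of EIF1 in scanning, had 14.3 and 14.2 FPKM. EIF5B, the GTPase of subunit joining, had 7.79 and 8.02. Both release factors were above 30, with GSPT1, the GTPase eRF3a, at 79.6 and 79.4 FPKM and ETF1, which reads the stop codon, at 31.3 and 31.0. GSPT1 was 2.54 times above ETF1 in replicate 1 and 2.56 times in replicate 2.

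Genes with and without the pyrimidine run were found at high and at low levels. The 10 genes with the run had a median of 55.8 FPKM, from EIF3M at 3.15 to EEF1A1 at 623, and 5 of them were above 30. The 24 genes with an entry and no run had a median of 37.0 FPKM, from EIF2B2 at 1.39 to EIF4G2 at 390.1, and 13 were above 30. The ranges of the genes with and without the run overlapped over most of their width. The 9 genes without an entry belong to neither set. They had a median of 74.0 FPKM, from EEF1D at 11.9 to PABPC1 at 1066, and 6 were above 30. Among all expressed genes with an entry, 663 had the run, of which 19.3% were above 30, and 7946 had none, of which 13.2% were above 30. These shares are descriptions without a test, and a match at an annotated start does not show where transcription starts in A549 cells. When the canonical GENCODE start was read in place of the RefSeq starts, 11 of the same 34 genes (32.4%) had the run, the added one being EIF3C, against 4.58% of the 20020 canonical protein-coding transcripts. That share covers all such transcripts and not only the expressed genes. The 9 genes without a RefSeq entry were not read at their GENCODE starts.

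Other features of the genes were also compared with the level. The canonical transcripts in GENCODE 44 on GRCh38 ranged from 772 bases for EIF3K to 7141 for GSPT1. Across the 43 genes, Spearman's rho with mean FPKM was 0.16 for transcript length, 0.06 for the length of the 3′ UTR and 0.17 for GC content. These are correlations across genes that share both libraries and 1 annotation, given as descriptions. The 12 genes with a canonical transcript under 2000 bases had a median of 21.2 FPKM and 4 above 30, and the 31 longer ones had a median of 71.9 and 20 above 30. Pseudogenes of the same name are annotated for 22 members, whose median was 57.4 FPKM against 46.2 for the other 21. The 10 members with a snoRNA gene within their bounds had a median of 75.1 FPKM and the other 33 had 31.1. These splits were chosen after the values were seen. The part of length, gene copies and snoRNAs in the levels was not tested.

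Both libraries gave nearly the same levels for these genes. The median absolute difference of log2(FPKM + 1) between them was 0.04 over the 43 genes, against 0.06 over the 11370 genes with a mean of at least 1 and 0.04 over the 1418 named genes above FPKM 30. The values were within 1.1 times of each other for 39 of the 43 genes. More than 1.2 times apart were 2 of the 43, against 8.42% of the expressed genes. Below 10 FPKM were 61.5% of the expressed genes and 6 of the 43, so these shares are not matched for level. The 2 genes were EEF1D, higher in replicate 2 by 1.28 times, and EIF6, higher in replicate 1 by 1.21 times. EEF1A1, higher in replicate 1 by 1.19 times, had the largest difference in FPKM, with a mean of 623 ± 75.7 (SD, n = 2). Replicate 1 was the higher one for 26 genes and replicate 2 for 17, and 56.2% of the expressed genes were higher in replicate 1.

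Other genes of translation, listed from general knowledge, were also looked up. Of 45 further genes, among them regulators, minor paralogs and recycling factors, 44 had a row. Of these, 10 (22.7%) had a mean above 30, against 13.6% of the expressed genes and 8.46% of all names. Their median was 8.08 FPKM, against 6.81 for the expressed genes. Only 37 of the 44 reached FPKM 1 in each library, so the list was not filtered as the expressed genes were. The highest was DDX3X, an RNA helicase that aids scanning, at 235 ± 3.05 FPKM (SD, n = 2). EIF2AK1 and EIF2AK4, kinases that phosphorylate eIF2α under heme deficiency and amino acid starvation, had 146 ± 7.03 and 73.6 ± 0.682 FPKM (SD, n = 2). LARP1, which binds TOP mRNAs, had 64.4 ± 0.874 FPKM (SD, n = 2), and EIF2A, an alternative initiator tRNA carrier, had 56.0 ± 0.366. EIF4E, the cap-binding protein itself, had 7.15 FPKM in replicate 1 and 6.36 in replicate 2. Its inhibitor EIF4EBP1 had 18.1 and 16.4 FPKM. EIF4E was thus below its partners EIF4G1 and EIF4A1 in both libraries. GSPT2, at 3.74 ± 0.286 FPKM, and EIF5A2, at 1.62 ± 0.0776 (SD, n = 2), were below GSPT1 and EIF5A in both libraries. EIF4E2, a relative of EIF4E named after its values were seen, was above EIF4E, with 22.4 FPKM in replicate 1 and 24.2 in replicate 2.

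The machinery nearest to these factors was set beside them. Of 80 cytosolic ribosomal protein genes, 37 (46.3%) were above FPKM 30 and the median was 27.2 FPKM. Of 20 cytosolic aminoacyl-tRNA synthetases, which charge tRNAs with their amino acids, 14 (70.0%) were above it and the median was 46.5. The translation factors had 55.8% above 30 and a median of 46.2, and the expressed genes had 13.6% and 6.81. The pyrimidine run stood at an annotated start of 47 of 64 ribosomal protein genes with a promoter entry and of 0 of 13 synthetases, against 10 of 34 translation factors. No test was made between these lists, so no difference in level is drawn from them.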

How the data were processed

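RNA pulled down with an LRPPRC antibody from A549 lysates was sequenced in 2 libraries, and 1 table holding both was used. Its values are gene-level FPKM as deposited. Per the labels and the study's methods the authors ran cutadapt 1.18, HISAT2 2.1.0 on GRCh38, SAMtools and StringTie 1.3.3b, and did not pool the libraries. Of 21262 rows, 16802 carry a gene name (16770 distinct), and 4460 were added by assembly. Division by length ties each level to the transcript model. The depth is unknown: a search of 5405 low genes (under FPKM 0.3, not 0) found at most 76 (1.41%) with one log2 ratio of the libraries within 0.02, so whole reads were not recovered, and no interval or detection limit was computed.

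Means, SDs, ranks and counts above FPKM 30 were computed, with a pseudocount of 1 for log2 differences. Expressed genes, the background, are the names that reached FPKM 1 in each library, and a repeated name (no member has one) was represented by its higher row. All 43 members are reported, with paralogs of some, the highest of the other translation genes, EIF4E and EIF4EBP1. Members and lists were chosen with earlier results of these data known. No significance test was run. Ribosomal protein genes exclude the readthrough gene RPS10-NUDT3. Gene bounds, lengths and pseudogenes come from GENCODE 44 on GRCh38, a later annotation than the authors', and starts from RefSeq. Counts and the start search were tested on simulated data. Alternatives were other thresholds, single libraries, equal FPKM sums, other pseudocounts, products with transcript length, filters and start definitions. The work used numpy 2.4.6 with scipy 1.17.1, and pandas 2.3.3 with matplotlib 3.10.9, under Python 3.11.15.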

Additional observations from a re-analysis of the deposited data

How the results depend on the processing

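The count of translation factors above FPKM 30 was 24 when both libraries or either one had to pass, in each library alone and with both libraries scaled to the same sum, 28 at FPKM 20 and 21 at FPKM 50. The median of each functional group moved by less than the SD between the libraries under all 5 alternatives tried for it, although with 2 libraries this is nearly given for a single library. Levels were also multiplied by the length of the GENCODE 44 canonical transcript. This does not exactly undo the division by length, because the authors used an earlier annotation. By this product 4 of the 8 groups changed place in the order by median, and the ratio of the highest to the lowest eIF3 subunit was 67.0 in place of 46.4. With a single library that ratio was 45.9 or 46.8. The share of named genes above FPKM 30 was 13.6%, and it was 8.46% among all names, 23.3% among genes that reached FPKM 5 in each library, 21.1% at FPKM 20, 6.89% at FPKM 50 and 13.6% or 13.7% in single libraries, because the background or the threshold differs. At FPKM 20 there were 16 genes of the other translation genes above the threshold, against 10 at FPKM 30, and at FPKM 50 there were 21 ribosomal protein genes, against 37. The run at the annotated start was found for 10 of 34 genes, against 7.70% of the expressed genes with an entry, and with a C followed by at least 6 C or T within 10 bases of the start it was found for 11, against 18.9% of those genes and 13.0% of all promoter entries, so the distance to other genes was smaller. Single-library, FPKM 20 and FPKM 50 values of the other lists and single-library values of the correlations were added after seeing the data. No paired analysis was possible because the series holds a single condition. Without the depth, no counting error can be given for low values such as those of EIF2B2 and EIF3M.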
